A study of Mus musculus with 10 samples.

Results

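Txnip and 9 genes of glutathione metabolism and the NRF2 antioxidant response were followed in ventricle RNA of mice with and without aldosterone. The genes are Txnip, Nqo1, Gclc, Gclm, Txnrd1, Srxn1, Hmox1, Gsr, Slc7a11 and Gsta4. Their probes were found by matching each probe's accession to a gene symbol, which gave 13 probes of the 39429 on the array, with 2 each for Txnip, Gsr and Hmox1. Txnip was chosen by its log2 ratios in these same hearts, so its values are a description and carry no test. The other 9 are listed beside it as glutathione and NRF2 genes. Of the 10 genes, 9 had heart signal well above background and entered the fit over 22016 genes or transcripts. Slc7a11, the cystine importer, had not.

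The samples were ventricles of male mice, 5 labelled as having no treatment and 5 as having received aldosterone, the adrenal steroid of salt balance, with a duration of 7 days given for both groups. Titles of both groups carry "Ctrl", whose meaning is not given, and "control" is used here for the untreated hearts alone. Each sample is labelled as its own mouse. Strain, age, dose and route are not given in the sources used here, and the controls are labelled as untreated, with no vehicle named. Each heart was hybridised in Cy5 against a Cy3 reference pooled from 5 tissues, liver, brain, heart, kidney and spleen, so every value is a log2 ratio of that heart over the reference. Values from the scanner files cover 5 control and 4 aldosterone arrays. Aldosterone replicate 4 is known only from the authors' deposited value table, which holds all 10 hearts as log2 ratios from the scanner's own processing.

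The scanner software marked 64.3% to 70.9% of probes as well above background in the heart channel, depending on the array. All 7 cardiomyocyte markers were well above background on all 9 arrays, at a mean log2 ratio of 0.92 to 1.34 in controls and 1.02 to 1.38 with aldosterone. The hearts also differed from each other along an axis that crosses the groups. It was taken as the first principal component of the deviations from the group means, over 21880 genes outside the lists used here, and held 38.5% of that variance. Controls 2 and 5 and aldosterone 1 and 2 lay on one side of it, and controls 1, 3 and 4 and aldosterone 3 and 5 on the other.

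As background, TXNIP is an arrestin-like protein that binds and inhibits thioredoxin, and it also lowers glucose uptake. Its gene is switched on by the glucose-sensing factors MondoA and ChREBP through carbohydrate response elements. NRF2, encoded by Nfe2l2, is held back by KEAP1. When released by oxidants or electrophiles it binds antioxidant response elements and raises genes that make glutathione, reduce thioredoxin and remove quinones and heme.

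The promoter of Txnip is shown because Txnip differed most between hearts among the 9 genes, with a range of 1.37 on the log2 scale over the 9 arrays against 0.35 to 0.67 for the others. Txnip had been chosen by these log2 ratios, so its wider range is a description. The promoter shown is the 250 bases before the RefSeq start at chr3:96557707-96557956 (GRCm38.p6, plus strand), with matches to CACGNG, the core that is repeated in carbohydrate response elements, in capitals on either strand.
Txnip: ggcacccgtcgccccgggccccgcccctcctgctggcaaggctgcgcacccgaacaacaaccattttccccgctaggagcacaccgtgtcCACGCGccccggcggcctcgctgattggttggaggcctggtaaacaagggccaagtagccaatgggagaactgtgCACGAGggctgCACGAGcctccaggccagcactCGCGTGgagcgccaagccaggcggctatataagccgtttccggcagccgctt
Of its 4 matches, CACGAG at -85 to -80 and CACGAG at -74 to -69 have the same orientation with 5 bases between them. CACGNG, which includes the E-box CACGTG, was found in 23.5% of 32851 promoter windows of this length. Of the 8 windows of 6 of the genes, 3 held it, those of Txnip, Gclm and Txnrd1, and it is capitalised for Txnip alone. CACGTG itself was in 6.02% of all windows and in none of the 8. The antioxidant response element core TGACNNNGC, searched on both strands, was in 2 of the 8 windows, of Gclm and Txnrd1, and in 10.2% of all windows. The windows of Nqo1, Srxn1, Slc7a11 and Txnip held no match to it. Both sites are shown in windows of 69 bases, with the core, which lies on the minus strand, in capitals. The Gclm window is chr3:122245393-122245461, and that of Txnrd1, from 1 of its 3 listed starts, is chr10:82859084-82859152, both read on the plus strand.
Gclm: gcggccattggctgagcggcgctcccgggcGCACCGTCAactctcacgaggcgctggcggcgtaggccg
Txnrd1: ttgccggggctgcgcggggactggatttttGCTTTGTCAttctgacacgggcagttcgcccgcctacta
A match is a string of letters and not a shown binding site.

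Txnip was low in 2 of the hearts given aldosterone and within or above the control range in the others. On the brighter probe its log2 ratio was 0.87, 0.84, 0.31, 0.45 and 0.65 in controls 1 to 5. In aldosterone 1, 2, 3 and 5 it was -0.39, 0.62, -0.50 and 0.35. Aldosterone 1 and 3 lay below every control, and aldosterone 2 and 5 lay inside the control range. Controls averaged 0.63 ± 0.24 (SD, n = 5) and aldosterone hearts 0.02 ± 0.55 (SD, n = 4), a difference of -0.60 (SE 0.22), or a 1.52-fold lower mean. The raw Cy5 signals show the same hearts, with 3494 units for aldosterone 1 and 4630.5 for aldosterone 3. The other 7 arrays gave 7140 to 9896 units. The Cy3 reference signal for this probe lay between 2003 and 2365.5 units on all 9 arrays. In bulk tissue, fewer cells of a type and less RNA per cell cannot be told apart.

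On the second, dimmer Txnip probe the same 2 hearts were the lowest. Its log2 ratio was 0.87, 0.69, 0.31, 0.50 and 0.77 in the controls and 0.09, 0.48, -0.08 and 0.39 in aldosterone 1, 2, 3 and 5. The 2 probes had a Pearson correlation of 0.951 over the 9 arrays and 0.970 over the 10 hearts of the value table. The difference on the dimmer probe was -0.41 (SE 0.14), so its size depended on the probe.

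**Figure D1:**
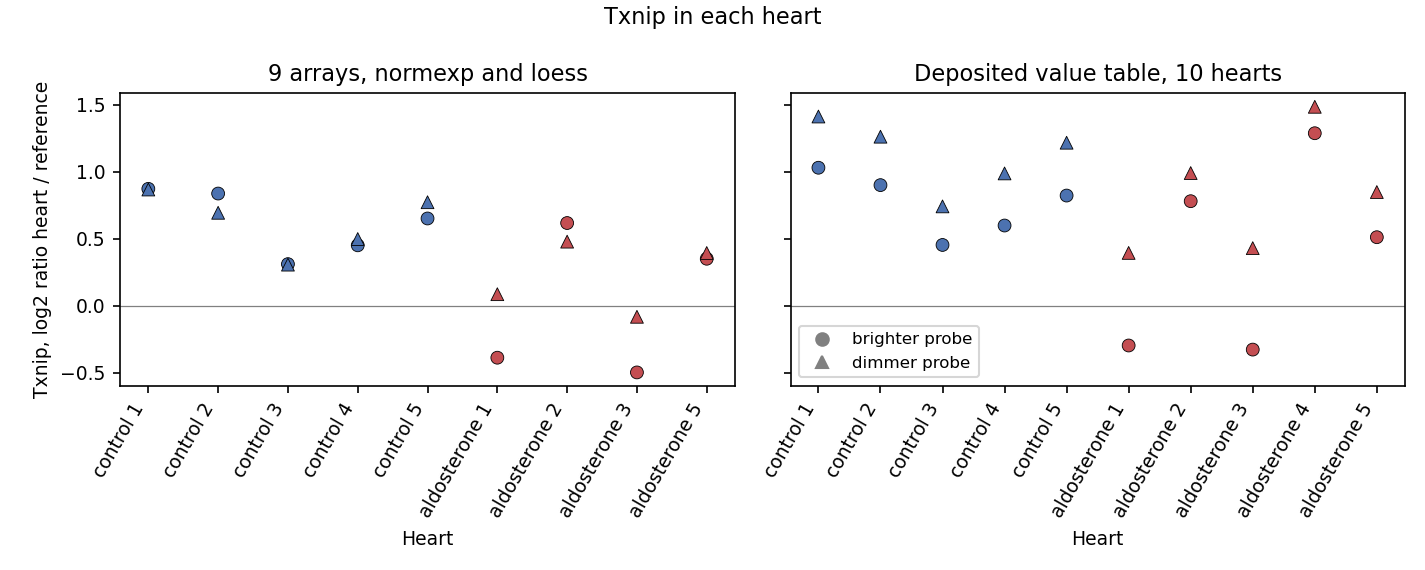
Txnip log2 ratio of heart over reference (vertical axis) in each heart (horizontal axis; blue, control; red, aldosterone), on the 9 arrays (left) and in the deposited value table of 10 hearts (right), for both probes. Aldosterone 1 and 3 are the lowest hearts on both sides, and aldosterone 4, shown only on the right, is the highest at 1.29 on the brighter probe.

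The tenth heart went the other way. The authors' deposited value table gave Txnip as 1.29 in aldosterone 4, the highest of all 10 hearts on this probe and, at 1.48, on the dimmer probe too. The controls in that table were 1.03, 0.90, 0.45, 0.60 and 0.82, and aldosterone 1, 2, 3 and 5 were -0.30, 0.78, -0.33 and 0.51. The aldosterone group therefore held both the highest value and the 2 lowest. Over all 10 hearts the difference was -0.37 (SE 0.30), against -0.59 (SE 0.25) over the same 9 hearts in the same table. Leaving out aldosterone 1 or aldosterone 3 from the 10 gave -0.20 and -0.19. The group medians were 0.82 in controls and 0.51 with aldosterone.

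The spread of Txnip was wider among aldosterone hearts than among controls in both sources. On the 9 arrays its SD with aldosterone was 2.25 times that of controls. Txnip was chosen by its log2 ratios in these hearts, so this spread is a description. In the value table, which adds aldosterone 4 to the same 9 hearts, the SD was 0.23 in controls and 0.70 with aldosterone (n = 5 each). Controls and aldosterone arrays shared 4 slides, which were told from the array identifiers and not from the sample labels. Among the 9 arrays each slide held 1 aldosterone array and 1 control, with 2 controls on slide 1. Differences within slides, here and below, therefore rest on 1 aldosterone array each. Within slides 1 to 4 Txnip differed by -1.24, 0.31, -0.95 and -0.30. The 2 low hearts were on different slides and on different sides of the axis between hearts described above.

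Genes whose pattern was most like that of Txnip were ranked by Pearson correlation over the 9 arrays, among 21880 genes outside the lists, and as the top of a ranking they carry no test. Of the 5 most alike, 1 had a symbol, Rassf9 (r = 0.92, Spearman's rho = 0.73; r = 0.89 over the 10 hearts of the value table). The most opposite were Rer1 (r = -0.96, rho = -0.88), Tmco4 (r = -0.94, rho = -0.87) and Defb28 (r = -0.93, rho = -0.77). Over the 10 hearts of the value table these had r = -0.88, -0.73 and -0.44, so Defb28 kept less of its likeness there.

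The other antioxidant genes had smaller differences, between -0.19 and 0.06 on the 9 arrays. None of the 8 that could be tested passed an adjusted p of 0.05 in limma, where 0 of 22016 genes (0%) did, while 1362 genes had an unadjusted p under 0.05. Of the 8, 2 had an unadjusted p under 0.05, both lower with aldosterone, beside 2.04% of all genes lower and 4.15% higher at that level. In all, 5 of the 8 were lower and 3 higher, and their median difference was -0.08, against 0.00472 for all genes. In the value table of 10 hearts none of the 8 had an unadjusted p under 0.05 (lowest 0.0570, for Gclc, in limma), where 3.2% of all genes were lower and 4.88% higher at that level. None of the 8 had groups that did not overlap on the 9 arrays, a pattern of 0.631% of all genes on the lower side and 1.44% on the higher side.

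**Figure D2:**
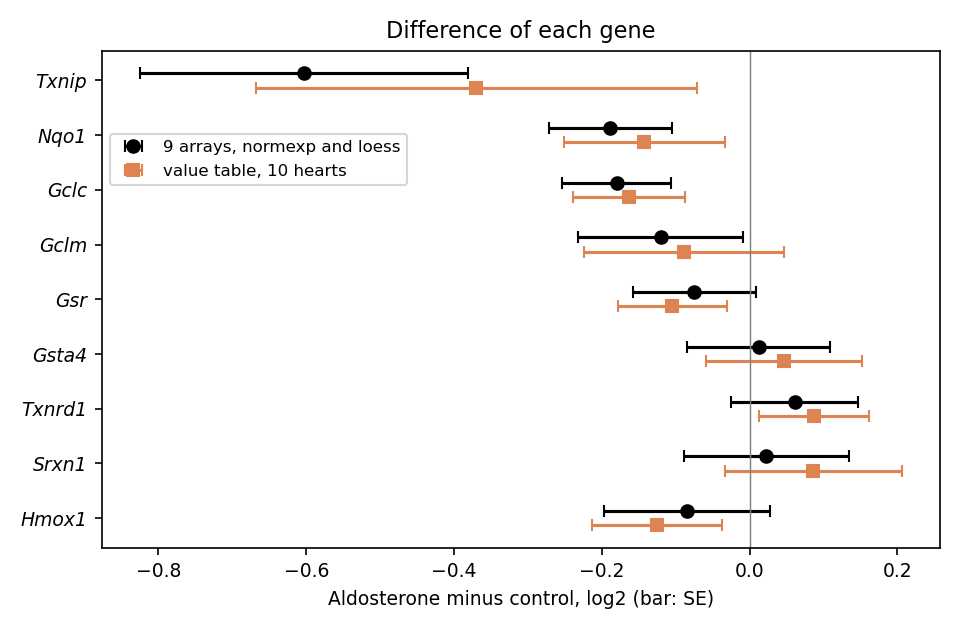
Difference of each gene, aldosterone minus control on the log2 scale (horizontal axis), with its standard error, on the 9 arrays (black) and in the value table of 10 hearts (orange). Txnip lies at -0.60 and -0.37, and the other 8 genes lie between -0.19 and 0.09.

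Of the genes that make glutathione, Gclc encodes the catalytic subunit of glutamate-cysteine ligase, the first and rate-limiting enzyme. Its log2 ratio was -2.56, -2.43, -2.42, -2.69 and -2.34 in controls 1 to 5, and -2.68, -2.62, -2.69 and -2.68 in aldosterone 1, 2, 3 and 5. The 4 aldosterone hearts lay close together at the low end of the control range, and control 4 was as low as they were. Gclc was lower by a difference of -0.18 (SE 0.07, 95% interval -0.34 to -0.02; limma adjusted p = 0.757). In the value table aldosterone 4 was at -2.38, above the other 4 aldosterone hearts at -2.58 to -2.53, and the difference over 10 hearts was -0.16 (SE 0.08; limma adjusted p = 0.638). Within slides 1 to 4 it was -0.19, -0.20, -0.0022 and -0.33.

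Gclm encodes the modifier subunit of the same enzyme. It lay between -2.25 in control 3 and -1.57 in control 2, and between -2.15 and -1.98 with aldosterone. All 4 aldosterone hearts lay inside the control range. The difference was -0.12 (SE 0.11, 95% interval -0.37 to 0.13; limma adjusted p = 0.994), and within slides 1 to 4 it was -0.27, 0.26, -0.13 and -0.16. Without control 2 it was -0.026, and without control 3 it was -0.19.

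Gsr encodes glutathione reductase, which returns oxidised glutathione to its reduced form. It lay between -2.46 and -2.08 in controls and between -2.44 and -2.27 with aldosterone, a difference of -0.08 (SE 0.08, 95% interval -0.26 to 0.11; limma adjusted p = 1.00). Within slides 1 to 4 it was -0.18, -0.05, 0.15 and -0.19. It was -0.022 without control 5, -0.12 without control 4 and -0.05 without aldosterone 2. Its second probe gave -0.13 (SE 0.12) and followed the first with r = 0.888 over the 9 arrays.

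Gsta4 encodes a glutathione transferase that clears the lipid peroxidation product 4-hydroxynonenal. Its probe is spotted 10 times on the array. It lay between 0.18 and 0.58 in controls and between 0.25 and 0.63 with aldosterone, so that the heart signal was above the reference in every heart. The difference was 0.01 (SE 0.10, 95% interval -0.20 to 0.23; limma adjusted p = 1.00), and within slides 1 to 4 it was 0.05, 0.45, -0.12 and -0.33. Its sign turned when the scanner's own log ratios were used (-0.012).

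Slc7a11 brings in the cystine from which glutathione is made. Its Cy5 signal was 57 to 65 units, at the level of the local background, and was well above background on 0 of 9 arrays. Its Cy3 signal in the reference, 78 to 92 units, was well above background on 2 of them. No level or difference between groups is given for it.

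Among enzymes that NRF2 induces, Nqo1 encodes a quinone reductase. Its log2 ratio was 0.80, 0.68, 0.87, 0.88 and 0.66 in controls 1 to 5, and 0.36, 0.66, 0.62 and 0.70 in aldosterone 1, 2, 3 and 5. Aldosterone 1 lay below all controls, aldosterone 3 just below the lowest, and the other 2 inside the control range. The difference was -0.19 (SE 0.08, 95% interval -0.37 to -0.0051; limma adjusted p = 0.798). Without aldosterone 1 it was -0.11 (SE 0.07), a size smaller by over 1.5 times. The value table gave Nqo1 as 0.68 in aldosterone 1 and 1.08 to 1.20 in the other 4 aldosterone hearts, beside 1.04 to 1.37 in controls. Within slides 1 to 4 the difference was -0.38, -0.20, -0.25 and 0.05.

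Txnrd1 encodes the cytosolic thioredoxin reductase, which recharges the thioredoxin that TXNIP inhibits. The log2 ratio of Txnrd1 was -0.77, -0.40, -0.59, -0.64 and -0.55 in controls 1 to 5, and -0.57, -0.33, -0.65 and -0.57 in aldosterone 1, 2, 3 and 5. Control 1 was the lowest heart and aldosterone 2 the highest, and the groups overlapped. The difference was 0.06 (SE 0.09, 95% interval -0.13 to 0.25; limma adjusted p = 1.00), with 0.02, 0.26, -0.01 and -0.02 within slides 1 to 4. Without aldosterone 2 it was -0.0050, without control 1 it was 0.02, without aldosterone 3 it was 0.10 and without control 2 it was 0.11.

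Srxn1 encodes sulfiredoxin, which restores overoxidised peroxiredoxins. Srxn1 stood at a log2 ratio of -1.12, -0.66, -1.11, -1.16 and -1.04 in controls 1 to 5, and -0.86, -0.87, -1.08 and -1.19 in aldosterone 1, 2, 3 and 5. Control 2 stood above all other hearts, and the groups overlapped. The difference was 0.02 (SE 0.11, 95% interval -0.22 to 0.27; limma adjusted p = 1.00), with 0.03, 0.24, 0.08 and -0.14 within slides 1 to 4, and its sign turned under several settings given in the closing section.

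Hmox1 encodes heme oxygenase 1, the inducible enzyme that breaks down heme and is abundant in macrophages. On its brighter probe the log2 ratio was -1.88, -1.64, -2.08, -2.18 and -2.08 in controls 1 to 5, and -1.86, -2.20, -2.07 and -2.11 in aldosterone 1, 2, 3 and 5. Controls 1 and 2 and aldosterone 1 were the high hearts, and the groups overlapped. The difference was -0.09 (SE 0.11, 95% interval -0.33 to 0.16; limma adjusted p = 1.00), with -0.09, -0.12, 0.11 and -0.03 within slides 1 to 4. It was -0.0013 without control 2, -0.04 without aldosterone 2, -0.14 without control 4 and -0.15 without aldosterone 1. The second Hmox1 probe did not follow the first (r = 0.148 over the 9 arrays, -0.046 over 10 hearts), and its difference was -0.01 (SE 0.09). Of 7 macrophage markers, 6 had a probe, and their mean log2 ratio was -1.59 to -0.85 in controls and -1.22 to -0.80 with aldosterone. The 4 red blood cell markers well above background on all 9 arrays averaged -3.36 to -2.45 in controls and -2.38 to -1.92 with aldosterone, without overlap. The part of either in the Hmox1 values was not tested.

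**Figure D3:**
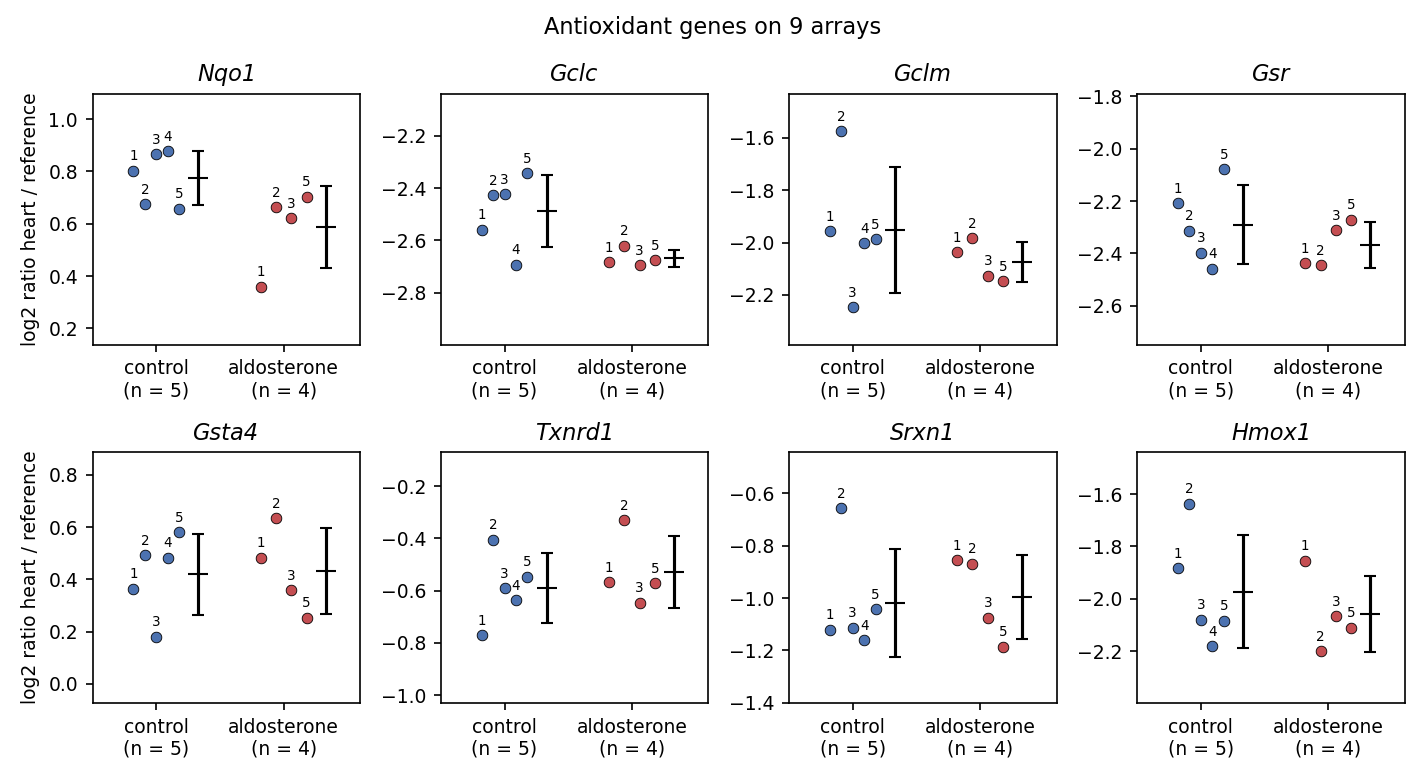
Log2 ratio of heart over reference (vertical axis, 1 scale range per gene) in 5 control arrays (blue) and 4 aldosterone arrays (red), each point numbered by replicate, with the mean and SD as a bar beside each group. The groups overlap for all 8 genes, and the aldosterone arrays of Gclc lie closest together, with an SD of 0.03 against 0.14 in controls.

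The antioxidant genes also varied along the axis between hearts that crosses the groups. Of the 8 in the fit, all but Gsr did so more than Txnip. The sides of the axis did not overlap for Srxn1, Gsta4 and Txnrd1, which is 3 of the 9 genes, beside 11.6% of all genes. Srxn1 was -1.04 to -0.66 on the side of controls 2 and 5 and aldosterone 1 and 2, and -1.19 to -1.08 on the other. For Gsta4 and Txnrd1 the nearest hearts of the sides almost touched, at 0.4826 and 0.4820 for Gsta4 and at -0.568 and -0.571 for Txnrd1. Of the deviations from the group means, the axis held 73.6% for Gsta4, 64.5% for Srxn1, 62.3% for Gclm and 55.3% for Nqo1. It held 36.4% for Txnrd1, 22.4% for Hmox1, 11.4% for Gclc, 9.94% for Txnip and 1.11% for Gsr. In that order these shares stood at the 90.7, 85.6, 84.1, 79.6, 64.9, 51.0, 36.3, 34.0 and 11.4 percentile of all genes. Nqo1 ran opposite to Srxn1, Gsta4, Txnrd1 and Gclm, with lower values on the side of controls 2 and 5. It was 0.36 to 0.68 there and 0.62 to 0.88 on the other side. With the axis as a covariate, which by its construction leaves the differences as they were, the SE went from 0.10 to 0.06 for Gsta4, from 0.11 to 0.08 for Srxn1 and Gclm, and from 0.08 to 0.07 for Nqo1. None of the 8 genes passed in that fit.

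**Figure D4:**
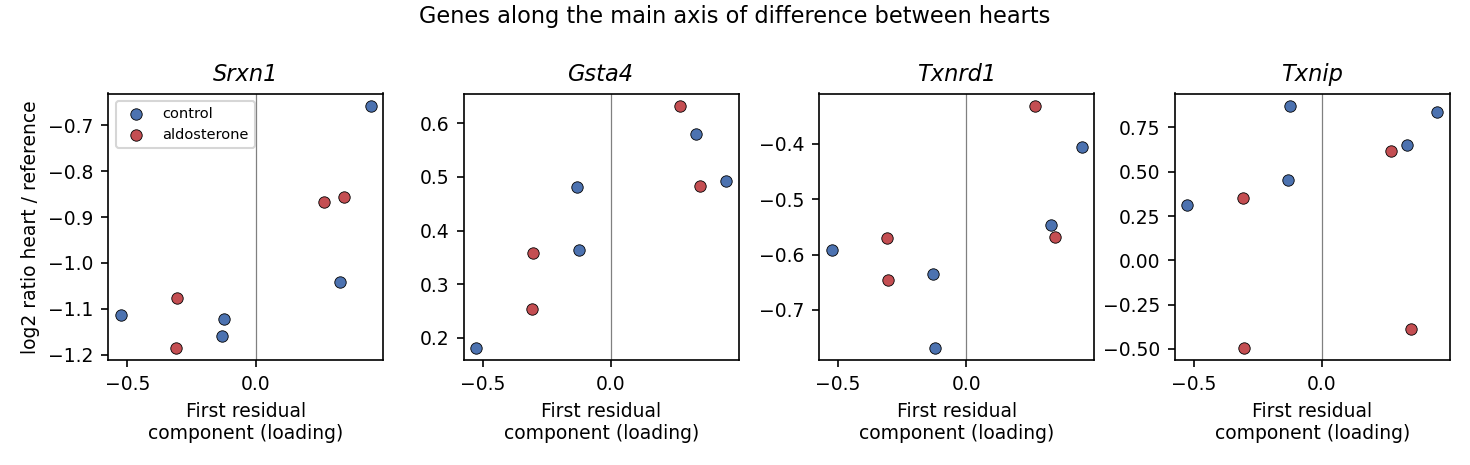
Log2 ratio of heart over reference (vertical axis) against each array's loading on the first principal component of the deviations from the group means (horizontal axis, no unit), for 5 control (blue) and 4 aldosterone (red) arrays. Srxn1, Gsta4 and Txnrd1 are higher on the right side of the line at 0, while the 2 lowest arrays of Txnip, at -0.50 and -0.39, lie on opposite sides.

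The rest of the pathway was followed in 5 lists of 90 genes, of which 89 were measured and Ugt1a6a was not. None passed an adjusted p of 0.05 in limma on the 9 arrays, and 4 (4.49%) had an unadjusted p under 0.05, beside 6.19% of all genes. Of all genes, 11497 were higher and 10519 lower, with the 5th and 95th percentiles of their differences at -0.15 and 0.19.

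Of 12 regulators of NRF2, 3 were higher and 9 lower with a median of -0.04, and 1 had an unadjusted p under 0.05, beside the 2.04% lower and 4.15% higher of all genes. In the value table of 10 hearts 0 regulators were higher and 1 lower at that level. The gene on the 9 arrays was Maff, a small MAF protein that pairs with NRF2, with a difference of 0.32 (SE 0.11; limma adjusted p = 0.649). Its log2 ratio was 0.05, 0.28, 0.17, -0.04 and 0.42 in controls and 0.55, 0.45, 0.73 and 0.27 in aldosterone 1, 2, 3 and 5. Of these, only aldosterone 5 lay inside the control range. In the value table the Maff controls were 0.52 to 1.02, and aldosterone 4 at 0.85 and aldosterone 5 at 0.98 lay inside that range. The Maff difference there was 0.30 (SE 0.14). Nfe2l1, a relative of NRF2, and Mafk, another small MAF, had differences of -0.11 (SE 0.06) and -0.11 (SE 0.07) on the 9 arrays. Over the 10 hearts of the value table these were -0.17 (SE 0.06) and -0.14 (SE 0.07). Nfe2l2, which encodes NRF2 itself, differed by -0.0081 (SE 0.14), and Keap1, its inhibitor, by -0.08 (SE 0.09).

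Of 27 measured other targets of NRF2, 8 were higher and 19 lower over the 10 hearts of the value table. On the 9 arrays 5 were higher and 22 lower, with a median of -0.04. At an unadjusted p under 0.05 in limma 2 were lower there and 0 higher, beside 2.04% and 4.15% of all genes. The lowest was Osgin1, an oxidative stress-induced growth inhibitor. The log2 ratio of Osgin1 was -2.53, -2.55, -2.64, -2.59 and -2.67 in controls 1 to 5 and -2.87, -2.95, -2.97 and -2.89 in aldosterone 1, 2, 3 and 5. All 4 aldosterone hearts lay below all controls, in a pattern that 0.631% of all genes shared. The means were -2.60 ± 0.06 (SD, n = 5) and -2.92 ± 0.04 (SD, n = 4), a difference of -0.32 (SE 0.05; limma adjusted p = 0.133), or 1.25-fold. In the value table of 10 hearts, 9 of them the same, the controls were -2.48 to -2.34 and the 5 aldosterone hearts -2.81 to -2.69. The share of all genes without overlap was not counted for that source. There the difference was -0.34 (SE 0.05; limma adjusted p = 0.0396), and Osgin1 was 1 of 4 genes called lower among 37 called (0.168% of genes). Leaving out 1 heart of that table at a time gave a limma adjusted p of 0.0473 to 0.137, under 0.05 only without control 5. Gstp1, a glutathione transferase with a near-identical copy, Gstp2, differed by -0.14 (SE 0.06; limma adjusted p = 0.804), and Ptgr1, a prostaglandin reductase, by 0.19 (SE 0.09; limma adjusted p = 0.808).

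Of 22 genes of glutathione synthesis, use and recycling, 13 were higher and 9 lower, with a median of 0.0061. Gsto1, an omega class glutathione transferase, had the smallest p. Gsto1 stood at a log2 ratio of 1.34, 0.90, 1.04, 1.06 and 1.06 in controls and 1.58, 1.19, 1.17 and 1.61 in aldosterone 1, 2, 3 and 5. Control 1 lay above aldosterone 2 and 3, and the difference was 0.31 (SE 0.12; limma adjusted p = 0.716). Gpx7, a glutathione peroxidase family member, differed by 0.12 (SE 0.08), and Ggt5, a gamma-glutamyl transferase, by -0.12 (SE 0.08). Slc3a2, the heavy chain that pairs with SLC7A11, differed by -0.0099 (SE 0.07), and Gss, glutathione synthetase, by 0.06 (SE 0.09).

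Of 15 genes of the thioredoxin system and peroxide removal, 7 were higher and 8 lower, with a median of -0.01. Msrb1, a methionine sulfoxide reductase, differed by 0.21 (SE 0.16), Prdx4 by 0.13 (SE 0.10) and Prdx2 by -0.10 (SE 0.09), the latter pair being peroxiredoxins. Prdx2 is abundant in red blood cells, whose markers averaged higher on each of the 4 aldosterone arrays than on any control, as given above, and their part in its value was not tested. Txn1, the cytosolic thioredoxin, differed by 0.05 (SE 0.06).

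Of 13 regulators, relatives and partners of Txnip, 8 were higher and 5 lower, with a median of 0.02. Mlxip and Mlxipl, which encode MondoA and ChREBP, differed by 0.12 (SE 0.10) and 0.14 (SE 0.09; limma adjusted p = 0.919). Itch, a ubiquitin ligase for TXNIP, differed by 0.08 (SE 0.06). Of the arrestin-like relatives, Arrdc4, which is also driven by MondoA, differed by -0.14 (SE 0.13), and Arrdc2 by 0.25 (SE 0.19). Over the 9 arrays Arrdc4 had a Pearson correlation with Txnip of 0.58, the highest of this list, and the 10 hearts gave 0.50. On the arrays Nqo1, Gclc and Gclm were close to it, at 0.57, 0.56 and 0.52, and the other antioxidant genes had 0.10 to 0.34. Over the 10 hearts Nqo1 had 0.51 and the other antioxidant genes 0.13 to 0.45. Nlrp3, in this list, had -0.09 on the arrays and -0.59 over the 10 hearts. These correlations span both groups, and the share of all genes reaching such values was not counted. Txnip was chosen by these log2 ratios, so the correlations are a description. A shared regulator was not tested.

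**Figure D5:**
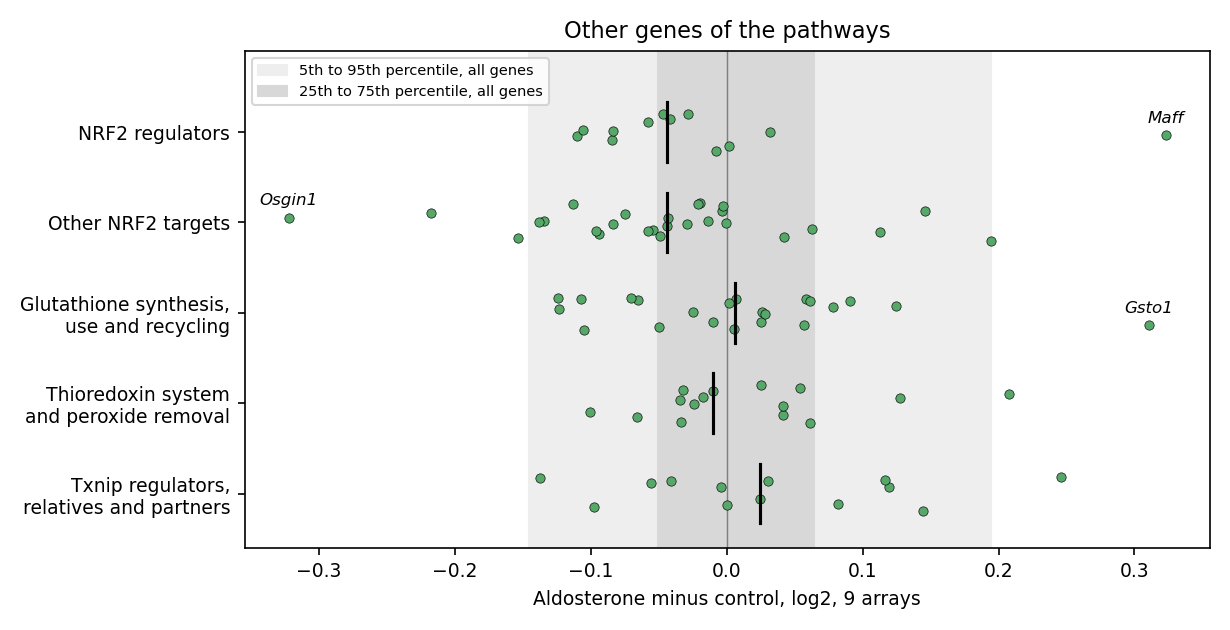
Difference, aldosterone minus control on the log2 scale over 9 arrays (horizontal axis), of each measured gene in 5 pathway lists (1 point per gene; vertical position within a list is arbitrary), with the list median as a black line and the spread of all genes in grey. Medians lie between -0.04 and 0.02, and Maff at 0.32, Osgin1 at -0.32 and Gsto1 at 0.31 lie farthest from 0 among the 7 of 89 genes (7.87%) outside the band from the 5th to the 95th percentile, which leaves out 10% of all genes.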

How the data were processed

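Arrays were read by the authors with Agilent Feature Extraction (version 10.7.3.1, per the submitters' processing notes). Each deposited scanner file gives an intensity per spot and channel and a log10 ratio, Cy5 over Cy3 (per the file headers). The authors' deposited value table holds log2 ratios for all 10 hearts. Set against the scanner log ratios it had r of 0.996 to 1.00 and a slope of 1.00, so scale and direction are known, and no centring was seen (column medians -0.01 to 0.12).

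Median signals were background-corrected with normexp (offset 50), after local backgrounds over 20 units from the array's median were replaced by it, and normalized by loess within arrays (R 4.3.3, limma 3.58.1). Control spots and 1667 outlier spots were left out and spots of 1 probe averaged. Probes well above background in Cy5 on at least 4 arrays were kept, 26877 of 39429, and the brightest represented its gene. Accessions were matched to RefSeq genes of GRCm38.p6, which named 26581 probes, and promoters are RefSeq's for that assembly, found for 6 of the 10 genes. Groups were compared by two-sided limma fits (5 control against 4 aldosterone arrays), with p-values adjusted by Benjamini-Hochberg over 22016 genes or transcripts. The code was tested on simulated data with noise drawn independently for each gene, which lack the axis between hearts seen in these data. The number of arrays limits the precision.

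The genes and lists were chosen with earlier results of these data known. Named were all 10 genes, the 3 genes of smallest p in each list, and the 5 genes of highest and 3 of most negative correlation with Txnip. Other list genes named here were chosen for their role after values were seen. Slides and scans were shared by both groups, but the place on a slide was 1 or 4 for controls and 2 for aldosterone arrays, and its effect cannot be told apart from that of the group. Alternatives covered background, normalization, filter, probes, blocks, a covariate, the value table and left-out hearts. Leaving out hearts of the value table and the second probes were added after seeing the data.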

Additional observations from a re-analysis of the deposited data

Results flagged for a closer look

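In 96 groups of 4 or 5 hearts, 6 had 1 heart far from the others, where chance gives about 5% of groups. Srxn1 in control 2 was -0.66, above the next control at -1.04. Ggt5 in control 5 was 0.74, with the other controls at 0.41 to 0.43. Prdx2 in control 3 was 0.58 on the arrays, where the next control was 0.29, and 0.79 in the value table, where the next was 0.50. Nqo1 in aldosterone 1 was 0.68 in the value table, below the next aldosterone heart at 1.08. Gclc in aldosterone 4, known only from the value table, was -2.38, above the next at -2.53. All are log2 ratios of heart over reference.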

How the results depend on the processing

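None of the 8 genes beside Txnip passed an adjusted p of 0.05 in limma under any alternative run, and the smallest was 0.390, for Nqo1. Their median difference was -0.08, and -0.15 to -0.014 over 24 alternatives. Nqo1, Gclc, Gclm, Hmox1 and Gsr kept their direction under every alternative run. The Txnip difference was -0.80 to -0.43 with 1 array left out, and -0.60 with the slide as a block. In the value table it was -0.59 to -0.19 with 1 heart left out, -0.20 without aldosterone 1 and -0.19 without aldosterone 3. The sign of Srxn1 turned with local backgrounds as deposited (-0.025), with the replicate number as a block (-0.013) and with 1 array left out (-0.024 to 0.11). That of Gsta4 turned with the scanner's log ratios and with the value table of the same 9 hearts (-0.012 in both) and with 1 array left out (-0.055 to 0.072), and that of Txnrd1 with 1 array left out (-0.0050 to 0.11). Over all genes, 0 were called on the 9 arrays, 13 with the scanner's log ratios, 37 and 13 in the value table of 10 and of the same 9 hearts, 2 with the replicate block, 5 with the axis between hearts as a covariate, and 0 to 11 with 1 array left out. There were 7 without control 3, 2 without control 4, 11 without control 5 and 1 without aldosterone 1. The causes were not tested. The pathway lists held 1 called gene in the value table of 10 hearts, Osgin1, and 0 in the other alternatives in which the lists were counted. Leaving out hearts of that table was run for Txnip and Osgin1 alone. Osgin1 passed in 2 of 34 alternatives, that table and that table without control 5, with a difference of -0.40 to -0.31 and a limma adjusted p of 0.0396 to 1.00. Same-numbered hearts shared only a number, with correlations of their deviations of 0.0587, 0.337, 0.347 and -0.339 for numbers 1, 2, 3 and 5, and 1 of 4 controls and 1 of 4 aldosterone hearts correlated best with its own number. With the replicate block the Txnip difference was -0.65. Signal over background limits Slc7a11, whose heart signal was not well above background on any of 9 arrays.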

Other observations

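The cell type markers fixed for these hearts gave the following mean log2 ratios. Fibroblast markers (6 of 6 measured) were 0.23 to 0.85 in controls and 0.56 to 1.09 with aldosterone, and endothelial markers 0.47 to 0.67 and 0.52 to 0.66. Of 5 adipocyte markers 1 was well above background on all 9 arrays, at -3.51 to -2.16 in controls and -4.31 to -3.14 with aldosterone. All 5 together averaged -1.33 to -0.88 and -1.61 to -1.18. Lymphocyte markers were -2.65 to -2.45 and -2.64 to -2.48, and liver markers -4.38 to -4.09 and -4.31 to -4.19.

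Of the unnamed transcripts most like Txnip over the 9 arrays, ENSMUST00000121473 had r = 0.95 (0.88 over the 10 hearts of the value table). The probe A_55_P2129469 had r = 0.95, which was 0.66 over the 10 hearts. The other two lost more of their likeness in that table. XM_001477650 went from r = 0.93 to 0.23 over the same 9 hearts and 0.30 over 10, and NM_001099628 from 0.92 to 0.51 and 0.42.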
